A study of Homo sapiens with 6 samples.

Results

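Chemokines and chemokine receptors were taken as the rows of the count table whose whole symbol is CCL, CXCL, CX3CL, XCL, CCR, CXCR, CX3CR or ACKR followed by digits, which gave 62 of 58735 rows: 41 ligand genes, 17 signalling receptor genes and 4 atypical receptor genes. The libraries came from 3 untreated cultures of PANC1, an established human pancreatic duct carcinoma line, and from 3 cultures of PANC1OR, the subline that the submitters selected from PANC1 by passage in rising concentrations of oxaliplatin, a chemotherapy agent whose platinum crosslinks DNA. The labels name the cell line of all 6 cultures as PANC1 and give DMEM with 10% FBS as the medium. PANC1OR is 1 derived line; p-values therefore rest on differences among cultures and not between independently selected lines. The series text describes the phenotype as stable off the drug and after freezing, and does not say whether these cultures were exposed when collected. The single comparison asks which of these genes differ in messenger RNA level between the resistant and the parental line.

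Chemokines are small secreted proteins that bind heptahelical receptors coupled to inhibitory G proteins and guide the migration of leukocytes and some tumour cells. They are grouped by the spacing of their first cysteines into CC, CXC, CX3C and XC ligands. CXC ligands that carry the residues glutamate, leucine and arginine (ELR) ahead of the cysteines bind CXCR2 and draw neutrophils. Among them CXCL6 and CXCL8 also bind CXCR1. CCL2 draws monocytes through CCR2, and CXCR4 is the receptor of CXCL12, an axis studied in the spread of pancreatic carcinoma. Atypical receptors (ACKR) bind chemokines and remove them without G protein signalling.

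Most of the family was silent or nearly silent in both lines. No library held a read of 24 members, which a count of 0 limits to 0.0715 CPM in PANC1 and 0.0547 CPM in PANC1OR (3 reads over the 3 libraries of a line; CPM are reads relative to library size after TMM scaling, and such limits and the counting intervals given for ratios cover counting error only). Another 15 members had 1 to 9 reads over the 6 libraries, and 23 had 10 or more. A gene entered the test when about 3 libraries reached 0.638 CPM, which 11 members did: 7 ligand genes, 3 signalling receptor genes and ACKR4. By edgeR's quasi-likelihood test with Benjamini-Hochberg adjustment over all 18751 tested genes, CXCR4 and CCL28 rose in PANC1OR and CCL2, CXCL1, CXCL8 and CCL5 fell, at an adjusted p under 0.05. That is 6 of 11 tested members beside 17.8% of all tested genes, with 2 higher beside 10.3% and 4 lower beside 7.5%. CXCL8 and CCL5 reached the level of the filter only in PANC1, so a gene low in both lines could not have joined them, and the count over the 11 is a description and not a measure of the family. The median log2 fold change (PANC1OR minus PANC1) was 0.25 over the 11 and 0.04 over all tested genes. Under the submitters' stricter rule, a log2 fold change beyond 2 in either direction at an adjusted p under 0.01, 5 of the 11 passed, beside 6.25% of all tested genes, and CCL28 was the called gene that did not.

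**Figure D1:**
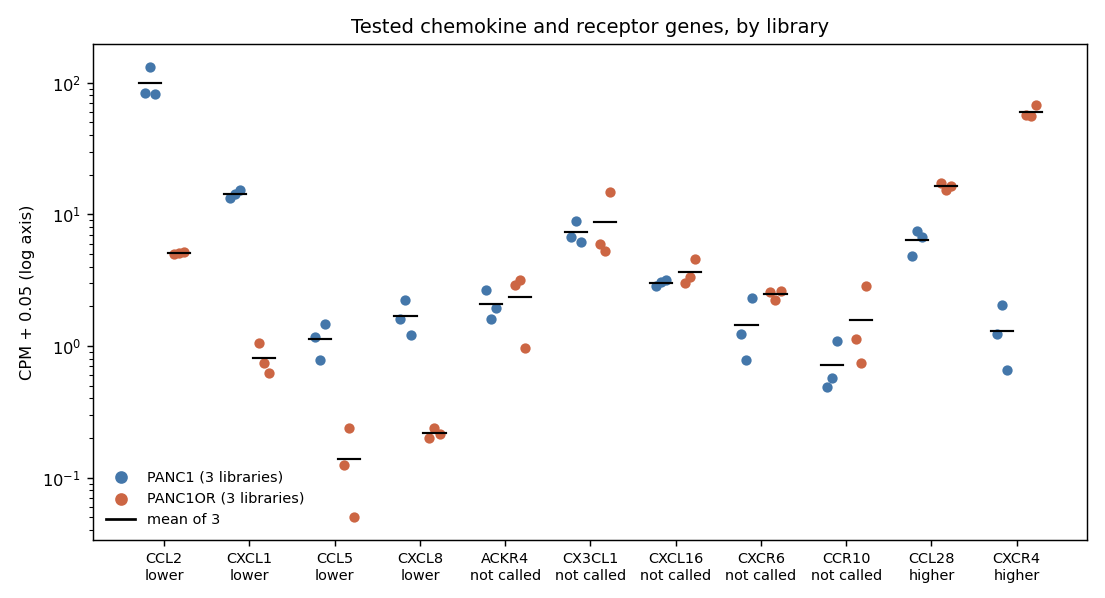
Level of the 11 tested chemokine and receptor genes in each of 6 libraries, as CPM plus 0.05 on a log axis (blue, PANC1; orange, PANC1OR; bar, mean of 3 libraries), ordered by log2 fold change. CXCR4 lies at 0.612 to 1.98 CPM in PANC1 and at 56.0 to 68.0 CPM in PANC1OR, while CCL2 lies at 81.7 to 133 and at 4.97 to 5.12 CPM.

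Some facts of the libraries touch these results. Totals ran from 10199268 to 26394388 reads. PANC1OR replicate 3 stood apart by base composition: its median log2 deviation from the other PANC1OR libraries was 1.23 for genes of over 60% GC and -0.88 for genes of under 40% GC, and PANC1 replicate 2 deviated the same way by 0.31 and -0.23. Leaving out PANC1OR replicate 3 raised the share of called genes from 17.8% to 44.1%, and offsets for GC content raised it to 36.2%; the 6 chemokine calls were made in both. Both lines carried KRT8, a keratin of simple epithelium, at 484 ± 256 CPM (SD, n = 3) in PANC1 and 429 ± 251 in PANC1OR. KRT18 was at 338 ± 104 and 315 ± 114 CPM. The keratins were not all alike: KRT19 was at 326 ± 121 and 23.3 ± 11.8 CPM (log2 -3.81, adjusted p = 0.000635 by edgeR's test). KRT7 was low, with 28 reads in PANC1 and 88 in PANC1OR. Of 6 duct markers KRT19 and SOX9 fell and 4 did not pass. The 9 leukocyte markers summed to 1.41 to 1.81 CPM in the PANC1 libraries and 3.03 to 5.86 in the PANC1OR libraries. CD2, CD3E and MS4A1 had 0 reads, PTPRC had 2 reads in PANC1 and 17 in PANC1OR, and CD14, a monocyte surface gene, rose by 3.24 ± 0.53 on the log2 scale (SE; adjusted p = 0.00412) from 12 to 139 reads. LYZ had 0 and 1 reads. Other leukocyte markers were lower or about level: ITGAM had 13 and 4 reads, and CSF1R had 39 and 35 and did not pass (-0.49 ± 0.40, adjusted p = 0.476). The 4 endothelial markers summed to 0.187 to 0.627 and 0.0826 to 0.2498 CPM. The 5 fibroblast markers summed to 80.9 to 95.8 CPM in PANC1 and 110.2 to 292 in PANC1OR, nearly all of it COL1A1, with COL1A2, DCN and LUM at 2, 2 and 3 reads over the 6 libraries. In bulk RNA, fewer cells that express a gene and less RNA per cell cannot be told apart.

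CXCR4, the receptor of CXCL12, had the highest log2 fold change of the 11. Its level was 1.18, 1.98 and 0.612 CPM in PANC1 replicates 1 to 3 and 56.6, 56.0 and 68.0 CPM in PANC1OR replicates 1 to 3. The lines did not overlap, which held for 6 of the 11 members beside 36.5% of all tested genes. The mean moved from 1.26 ± 0.690 to 60.2 ± 6.74 CPM (SD, n = 3 each), or 5.63 ± 0.40 in log2 (SE; adjusted p = 7.6e-05 by edgeR's quasi-likelihood test) and 49.7-fold. Among all 18751 tested genes it ranked 97 from the highest fold change. Without PANC1 replicate 3 or PANC1 replicate 2, whose levels bound the PANC1 spread, it was 5.27 and 6.06. PANC1OR replicate 3 was 1.21 times the mean of replicates 1 and 2. The gene (ENSG00000121966) lies on chromosome 2 at 136114349 to 136119177 of GRCh38 on the minus strand and overlaps no gene on the opposite strand in GENCODE release 44.

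Neither line held a matching level of the ligand of CXCR4. CXCL12 had 3, 0 and 2 reads in the PANC1 libraries and 0 in all 3 PANC1OR libraries. ACKR3, the atypical receptor that shares this ligand, had 0 reads in all 6. CXCR4 made up 20.0% of the summed CPM of the 21 receptor genes in PANC1 and 88.6% in PANC1OR. The other 20 summed to 3.97 to 6.12 CPM in the PANC1 libraries and to 7.18 to 8.11 in the PANC1OR libraries.

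CCR7, the receptor that leads dendritic cells and lymphocytes to lymph nodes, had reads in PANC1OR only. It had 0 reads in each PANC1 library and 14, 7 and 6 in the PANC1OR libraries, or 0.523, 0.437 and 0.495 CPM, at least 6.89-fold higher against the limit of 3 reads over the PANC1 group. It fell below the filter and was not in the test of 18751 genes. Tested without a filter among 37580 genes, of which 11.4% were called, it had an adjusted p of 0.00112. Its ligand genes CCL19 and CCL21 had together 12 reads in PANC1 and 3 in PANC1OR. Beside it, PTPRC and CD14 had more reads in PANC1OR and ITGAM and CSF1R had fewer, and their part in the CCR7 value was not tested.

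The other receptor genes were low and none passed the test. CXCR6, the receptor of CXCL16, was at 1.18, 0.731 and 2.26 CPM in PANC1 and at 2.54, 2.19 and 2.56 in PANC1OR, a log2 fold change of 0.76 ± 0.40 (adjusted p = 0.255). CCR10, the receptor of CCL27 and CCL28, was at 0.436, 0.522 and 1.04 CPM in PANC1 and at 1.08, 0.687 and 2.81 in PANC1OR (1.102 ± 0.60, adjusted p = 0.276). For both genes PANC1 replicate 3 was above the lowest PANC1OR library, so the lines overlapped. ACKR4, which scavenges CCL19, CCL21 and CCL25, was at 2.61, 1.57 and 1.90 CPM and at 2.84, 3.12 and 0.908 CPM (0.19 ± 0.45, adjusted p = 0.828). PANC1OR replicate 3 was 3.17 times the mean of replicates 1 and 2 for CCR10, whose longest transcript has 66.7% GC, and 0.305 times for ACKR4 with 35.5% GC, in the direction in which that library deviated for all genes. CXCR6 lies across from FYCO1, CCR10 from CNTNAP1 and ACKR4 from ACAD11, and reads of such partners cannot be separated because no source used here names the strand setting.

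The remaining receptors had few reads or none. CXCR3 had 9 reads in PANC1 and 13 in PANC1OR, CXCR5 had 9 and 14, ACKR2 had 6 and 8, and each of these ratios had a counting interval that included equality. CX3CR1, the receptor of CX3CL1, had 8 PANC1 reads against 2, and PANC1 was 5.23 times PANC1OR (95% counting interval 1.04 to 50.5). CCR9, the receptor of CCL25, had 1 and 10, a ratio of 7.65 in the other direction (1.09 to 332). CCR9 lies across from LZTFL1, CXCR5 from BCL9L and ACKR2 from CYP8B1, and reads of these partners cannot be separated either. CCR4, CCR8 and CCR6 had 6, 5 and 2 reads over the 6 libraries. CCR1, CCR2, CCR3, CXCR1 and ACKR1 had 0 reads in every library, and CXCR2 had 1 read in all.

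CCL2, the monocyte attractant, was the chemokine with the highest level in PANC1 and fell in PANC1OR. It was at 83.9, 133 and 81.7 CPM in PANC1 replicates 1 to 3 and at 4.97, 5.00 and 5.12 CPM in PANC1OR replicates 1 to 3. The lines were far apart, the spread within PANC1 came from replicate 2, and the PANC1OR libraries agreed closely. The mean moved from 99.5 ± 28.9 to 5.03 ± 0.0796 CPM (n = 3 each), or -4.30 ± 0.27 in log2 (adjusted p = 5.13e-05) and 19.7-fold lower. Its share of the summed CPM of all 41 ligand genes was 73.5% in PANC1 and 14.0% in PANC1OR. The ligand sum was 116 to 172 CPM in the PANC1 libraries and 31.0 to 42.8 in the PANC1OR libraries. Without CCL2 it was 31.9 to 39.2 and 26.0 to 37.7 CPM, and these ranges overlapped.

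CCL2 (ENSG00000108691, chromosome 17 at 34255274 to 34257208, plus strand) lies at the edge of a group of CC ligand genes that otherwise had almost no reads. CCL7, CCL11, CCL8 and CCL1 had 0 reads in every library and CCL13 had 1, so that 6 neighbours on 34255274 to 34363233 held 3956 reads in PANC1 and 275 in PANC1OR, of which all but 1 were from CCL2. In the next group on chromosome 17, at 35871491 to 36105621, CCL5 was detected, CCL16 had 2 reads, and CCL14, CCL15, CCL23, CCL18, CCL3 and CCL4 had 0. CCL5, an attractant of T cells and monocytes, was at 1.12, 0.731 and 1.41 CPM in PANC1 and at 0.0748, 0.187 and 0 CPM in PANC1OR. It fell by 3.50 ± 0.64 on the log2 scale (adjusted p = 0.00678), on 48 reads against 5. Without PANC1OR replicate 2, which held 3 of the 5, the log2 fold change was -4.27. An antisense gene overlaps CCL5, and its reads cannot be told apart.

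The ELR ligands within the symbol rule had fewer reads in PANC1OR for each of the 6 members, CXCL1, CXCL2, CXCL3, CXCL5, CXCL6 and CXCL8. These genes belong to the neutrophil-attracting group of the CXC family. They lie on chromosome 4 between 73740519 and 74099196, with PF4V1, PF4 and PPBP in the same interval. The 130 bases upstream of the RefSeq starts of the 6 members (GRCh38.p14) are shown because the 6 were low together in PANC1OR. Each is read 5′ to 3′ along its gene. Capitals mark matches, on either strand, to GGAATTTCC or to a longer NF-kappaB consensus of 10 letters that has any base at its positions 4 and 5.
CXCL8 (chr4:73740439-73740568, plus strand): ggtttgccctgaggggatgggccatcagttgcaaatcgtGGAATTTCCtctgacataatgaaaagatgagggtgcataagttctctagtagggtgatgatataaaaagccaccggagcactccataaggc
CXCL6 (chr4:73836548-73836677, plus strand): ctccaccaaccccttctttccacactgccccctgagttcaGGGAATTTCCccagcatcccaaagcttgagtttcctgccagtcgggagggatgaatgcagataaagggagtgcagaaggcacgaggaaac
CXCL1 (chr4:73869263-73869392, plus strand): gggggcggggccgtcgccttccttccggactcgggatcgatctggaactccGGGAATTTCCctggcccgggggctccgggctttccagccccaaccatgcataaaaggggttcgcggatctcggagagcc
CXCL5 (chr4:73998678-73998807, minus strand): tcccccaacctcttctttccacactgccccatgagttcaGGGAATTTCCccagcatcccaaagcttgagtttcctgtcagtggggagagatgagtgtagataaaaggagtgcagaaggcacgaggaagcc
CXCL3 (chr4:74038690-74038819, minus strand): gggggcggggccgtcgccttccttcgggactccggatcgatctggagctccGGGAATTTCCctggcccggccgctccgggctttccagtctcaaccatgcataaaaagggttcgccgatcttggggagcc
CXCL2 (chr4:74099196-74099325, minus strand): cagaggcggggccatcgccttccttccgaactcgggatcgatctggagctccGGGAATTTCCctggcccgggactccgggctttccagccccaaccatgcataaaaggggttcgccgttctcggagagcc

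All 6 windows held a match, and the capitals begin 78 to 91 bases before the start. In CXCL8 it was GGAATTTCC alone, and in the other 5 it was GGGAATTTCC, where both motifs overlap and are counted for each. Among the 250 bases upstream of all 35116 RefSeq starts, 1.73% held the longer consensus, 0.413% held GGAATTTCC and 2.00% held either. The table matched 43 members with 57 starts, and 10 of these held either motif: the 6 ELR ligands, CCL20, CXCL10, CXCL11 and 1 start of CCR9. CXCL10 and CXCL11 had 0 reads in every library. CXCR4, with 3 starts, CCL28, with 2, and CXCR6 were among the members in the table without a match. CCL2, CCL5, CCR7, CCR10, CX3CL1, CXCL16 and ACKR4 were among the members with no entry. A match is a description of the letters only.

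CXCL1 was the most abundant ELR ligand. It was at 13.2, 14.2 and 15.4 CPM in PANC1 and at 1.01, 0.687 and 0.578 CPM in PANC1OR. The libraries of a line were close and the lines far apart. The mean moved from 14.3 ± 1.08 to 0.758 ± 0.224 CPM, or -4.17 ± 0.29 in log2 (adjusted p = 7.02e-05 by edgeR's test). CXCL8, known as interleukin 8, was at 1.56, 2.19 and 1.16 CPM in PANC1 and at 0.1495, 0.187 and 0.165 CPM in PANC1OR, and fell by 3.22 ± 0.44 on the log2 scale (adjusted p = 0.00166). Both kept their call in all 14 alternatives.

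The other 4 ELR ligands fell below the filter, and their values are read counts. CXCL5 had 5, 5 and 13 reads in the PANC1 libraries and 0 in each PANC1OR library, at least 10.02-fold lower. A gene on the opposite strand overlaps CXCL5, and its reads cannot be told apart. CXCL3 had 3, 4 and 4 reads against 0, at least 4.79-fold lower. CXCL2 had 9 reads against 1, a ratio of 11.8 (1.63 to 516), and CXCL6 had 17 against 5, a ratio of 4.44 (1.57 to 15.4). In each of these 4, except CXCL2 where PANC1 replicate 1 had a single read, all PANC1 libraries held at least 3 reads. Tested without a filter, CXCL5 and CXCL3 were called (adjusted p = 0.000418 and 0.0188) and CXCL2 and CXCL6 were not (0.124 and 0.126). Reads may be shared among CXCL1, CXCL2 and CXCL3, whose sequences are nearly the same, and the sum of these 3 genes was 13.4 to 15.8 CPM in PANC1 and 0.578 to 1.05 in PANC1OR. PF4V1, a platelet factor gene of the same chromosomal group that the symbol rule leaves out, had 13 reads in PANC1 and 3 in PANC1OR, PF4 had 2 and 0, and PPBP had 0.

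**Figure D2:**
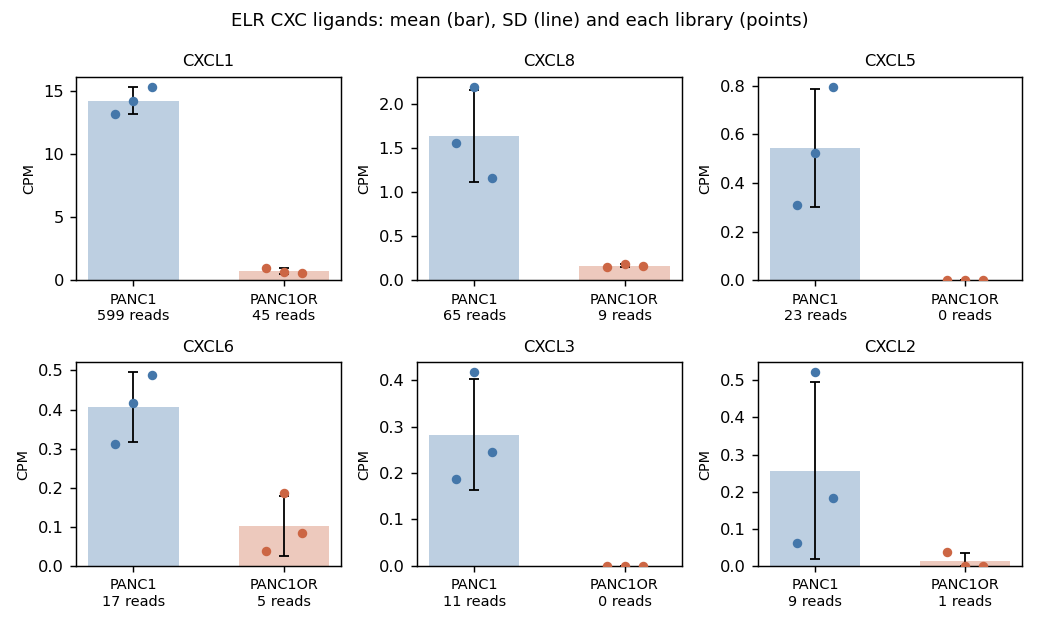
CPM of the 6 ELR ligand genes in each library (points), with the mean (bar, from 0) and SD (line, cut at 0) of 3 libraries per line and the reads of each line under the bars. CXCL1 stands at 599 reads in PANC1 and 45 in PANC1OR and CXCL8 at 65 and 9, while CXCL5 and CXCL3 have 0 reads in PANC1OR.

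CCL28, an epithelial ligand of CCR10 and CCR3 made in mucosal and glandular tissue, was the single tested chemokine that rose. It was at 4.79, 7.42 and 6.73 CPM in PANC1 and at 17.4, 15.4 and 16.3 CPM in PANC1OR. The lines did not overlap. The mean moved from 6.31 ± 1.36 to 16.4 ± 1.01 CPM, or 1.38 ± 0.24 in log2 (adjusted p = 0.00533) and 2.60-fold. It made up 4.67% of the ligand sum in PANC1 and 45.7% in PANC1OR, where it was the ligand gene with the most reads. The gene (ENSG00000151882) lies on chromosome 5 at 43376645 to 43412391, minus strand, apart from other members.

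The membrane-anchored ligands were detected in both lines and did not pass the test. CX3CL1, also called fractalkine, was at 6.72, 8.88 and 6.12 CPM in PANC1 and at 5.94, 5.25 and 14.7 CPM in PANC1OR (0.25 ± 0.41, adjusted p = 0.752). PANC1OR replicate 3 was 2.63 times the mean of replicates 1 and 2 for this gene of 55.4% GC, and without it the log2 fold change was -0.36. CXCL16, the ligand of CXCR6 and a scavenger receptor, was at 2.80, 3.03 and 3.12 CPM and at 2.95, 3.31 and 4.54 CPM (0.26 ± 0.27, adjusted p = 0.58), and it lies across from ZMYND15 and MED11.

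Of the other ligand genes, 2 with 10 or more reads had more in PANC1OR. CCL20, the ligand of CCR6, had 3, 0 and 0 reads in PANC1 and 9, 1 and 7 in PANC1OR, a ratio of 4.34 (1.25 to 23.1). CXCL17, a mucosal chemokine, had 3, 4 and 2 reads and 12, 9 and 5, a ratio of 2.21 (1.00 to 5.36), and LIPE-AS1 overlaps it on the opposite strand. Neither was called without a filter (adjusted p = 0.237 and 0.397). CCL26, an eosinophil attractant under 10 reads in all, had 0 reads in PANC1 and 3, 3 and 1 in PANC1OR. The interferon-induced ligand genes CXCL9, CXCL10 and CXCL11 had 1 read among them.

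**Figure D3:**
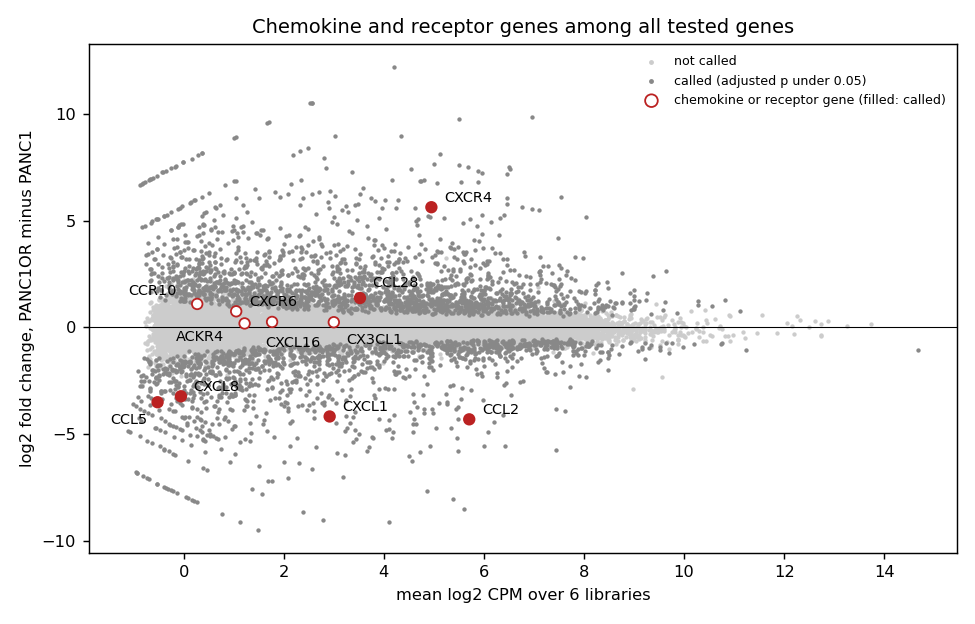
Log2 fold change (PANC1OR minus PANC1) against mean log2 CPM for all 18751 tested genes, with the 11 tested chemokine and receptor genes circled (filled where the adjusted p is under 0.05). CXCR4 at 5.63 lies near the upper edge at its level, CCL2 at -4.30 and CXCL1 at -4.17 near the lower edge, and the 5 open circles lie between 0.19 and 1.102.

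Levels of different genes were compared per kilobase of exon, where a base counts as exon if any annotated transcript of the gene holds it. For CCL2 this length is 1935 bases, the whole gene, so its place among the genes depends on the length used. Genes are said to differ beyond their spread where the ranges of the mean ± SD do not meet. In PANC1, CCL2 was first at 51.4 ± 14.9 CPM per kilobase and CXCL1 next at 10.5 ± 0.791, and these differed beyond their spread. CCL28, CX3CL1 and CXCL16 followed at 1.40 ± 0.3005, 1.21 ± 0.244 and 1.07 ± 0.0586, far below CXCL1, and did not differ among themselves beyond the spread. CCL5, ACKR4, CXCL8, CXCR4, CXCR6 and CCR10 lay at 0.796 to 0.254 in that order, each within the spread of the next. In PANC1OR, CXCR4 was first at 20.7 ± 2.32 CPM per kilobase. By these lengths CCL28 was next at 3.62 ± 0.223 and then CCL2 at 2.60 ± 0.0411, each apart from the next. The order of CCL28 and CCL2 may differ with another length for CCL2. CX3CL1 at 1.45 ± 0.884 and CXCL16 at 1.29 ± 0.298 overlapped, as did ACKR4, CXCR6, CCR10 and CXCL1 between 0.858 and 0.557, and CXCL8 and CCL5 were last at 0.0647 and 0.06405.

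Signalling receptors and ligands of the symbol rule were set beside each other. The ligands of CCR2 stood at 51.4 CPM per kilobase in PANC1 and 2.60 in PANC1OR with 0 reads of the receptor, and the 6 ELR ligands at 11.8 and 0.680 with 1 read of CXCR2. For CXCR4 the receptor was at 0.434 and 20.7 and its ligand at 0.0168 and 0 CPM per kilobase. Among the signalling receptors and ligands plotted, the combinations detected on both sides in each line were CXCR6 with CXCL16, CCR10 with CCL28 and, with the receptor under 0.05 CPM per kilobase, CX3CR1 with CX3CL1 and CCR6 with CCL20, the last on 1 receptor read in each line. In the CCR10 combination the receptor was at 0.254 and 0.583 and the ligand at 1.40 and 3.62 CPM per kilobase in PANC1 and PANC1OR.

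**Figure D4:**
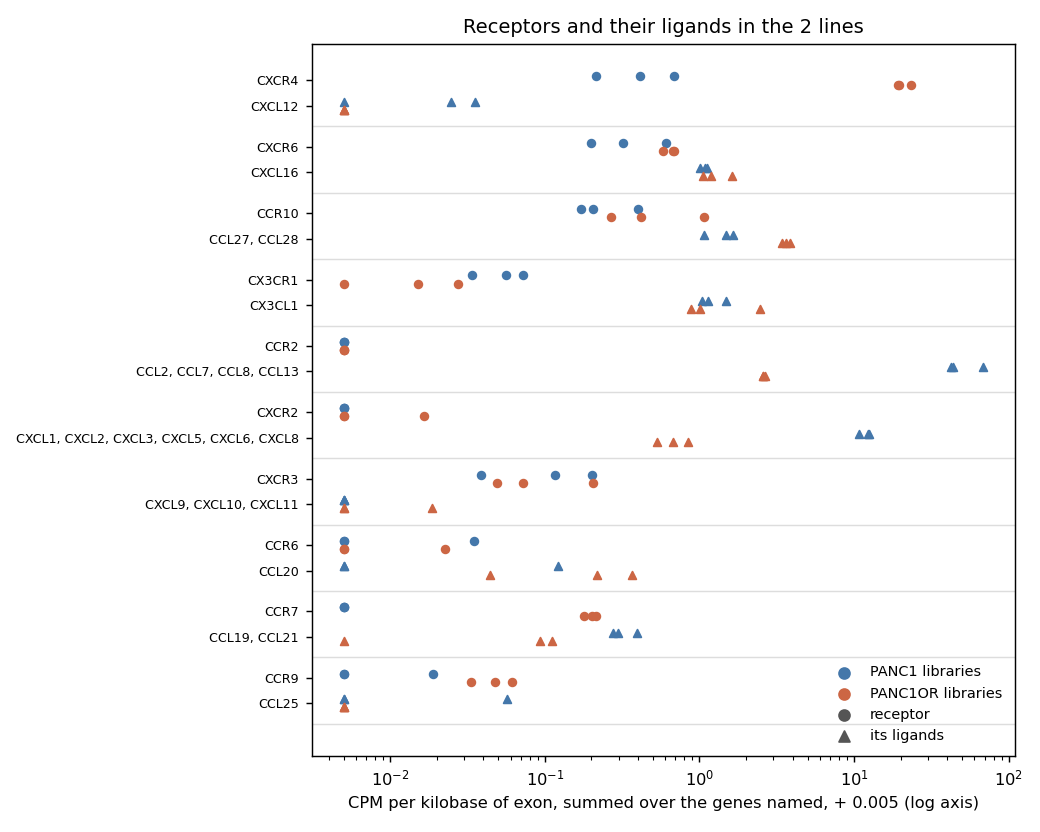
CPM per kilobase of exon of 10 receptor genes (circles) and the sum over their ligand genes (triangles) in each PANC1 (blue) and PANC1OR (orange) library, on a log axis with a small constant added so that 0 can be drawn at the left edge. CXCR4 moves right in PANC1OR while CXCL12 sits at or near 0, and CCR2 sits at 0 in all libraries.

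Genes that transmit, end or present chemokine signals were followed in 4 lists of 69 genes, of which 45 were tested. By edgeR's test 4 rose and 7 fell, beside 10.3% and 7.5% of all tested genes; without PANC1OR replicate 3 these were 9 and 18 of 46, in a fit that called 44.1% of all genes. Of 26 genes of receptor signalling and desensitisation 19 were tested: GRK5 rose, GNAI1, RAC1, ARRB1 and GRK3 fell and 14 did not pass, with a median log2 fold change of -0.20. GNAI1, an inhibitory G protein subunit, was at 24.4, 23.9 and 26.5 CPM in PANC1 and at 3.14, 2.69 and 2.39 in PANC1OR (-3.17 ± 0.23, adjusted p = 7.5e-05). RAC1, a GTPase of cell motility, was at 556, 562 and 561 CPM and at 322, 319 and 269 CPM (-0.88 ± 0.17, adjusted p = 0.00784). For GNAI1 and RAC1 the lines were apart and the libraries of a line close. GNAI2 and GNAI3, inhibitory subunits named after their values were seen, had higher levels than GNAI1 and did not pass edgeR's test. GNAI2 was at 170 ± 47.7 and 150 ± 69.3 CPM (-0.18 ± 0.34, adjusted p = 0.774). GNAI3 was at 121 ± 17.1 and 116 ± 33.4 CPM (-0.06 ± 0.25, adjusted p = 0.910).

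Arrestins and receptor kinases end receptor signalling. ARRB1, an arrestin, was at 164 ± 10.8 and 93.4 ± 26.9 CPM (-0.81 ± 0.23, adjusted p = 0.0443), and the receptor kinase GRK3 at 51.3 ± 3.21 and 31.2 ± 2.13 CPM (-0.72 ± 0.18, adjusted p = 0.0278). GRK5, another receptor kinase, was at 62.9 ± 5.04 and 102.6 ± 21.0 CPM (0.71 ± 0.20, adjusted p = 0.0472). Each of these 3 calls was lost without any 1 library other than PANC1OR replicate 3, with adjusted p up to 0.157, 0.130 and 0.202, and with the replicate block (0.0780, 0.109 and 0.131). Without a filter GRK3 and GRK5 were lost (0.0700 and 0.0596), and with DESeq2 size factors GRK5 was (0.0529). ARRB2, the other arrestin listed and named after its values were seen, was higher in PANC1OR but did not pass. Its level was 29.5 ± 7.05 and 48.8 ± 14.4 CPM (0.73 ± 0.28, adjusted p = 0.118 by edgeR's test), and it was called in 3 of the 14 alternatives. The leukocyte signalling genes PIK3R5, PIK3CG, ELMO1 and DOCK2 had 12 or fewer reads each over the 6 libraries.

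Of 10 genes of ligand shedding, cleavage and heparan sulfate, the sugar chain that holds chemokines at the cell surface, 9 were tested, and their median log2 fold change was 0.10. SDC2, a heparan sulfate core protein, was at 19.5, 23.3 and 18.7 CPM in PANC1 and at 0.561, 0.375 and 0.495 in PANC1OR, and fell by 5.38 ± 0.29 on the log2 scale (adjusted p = 2.52e-05). EXT1, an enzyme that lengthens the chain, was at 26.5, 24.3 and 28.4 CPM and at 129.8, 131 and 135.5 CPM, and rose by 2.32 ± 0.17 (adjusted p = 9.3e-05). For both genes the lines were clearly apart, and the other 7 did not pass. Among these GPC1, a heparan sulfate core protein named after its values were seen, was at -1.11 ± 0.45 (adjusted p = 0.138) and was called at -1.89 without PANC1OR replicate 3 (adjusted p = 3.36e-05), with GC offsets (2.19e-05), with no filter (0.0099), and in 2 further alternatives. DPP4, a protease that trims chemokines, had 1 read in PANC1 and 4 in PANC1OR.

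Of 21 cytokines and regulators that are often induced with inflammatory chemokines 16 were tested, with 2 higher, 2 lower and a median log2 fold change of -0.11. CSF1, a macrophage growth factor, was at 386, 373 and 351 CPM in PANC1 and at 44.6, 40.1 and 77.9 in PANC1OR (-2.77 ± 0.28, adjusted p = 0.000386). TNFAIP3, an NF-kappaB feedback inhibitor, was at 10.3, 10.03 and 8.44 CPM and at 2.88, 3.06 and 3.80 CPM (-1.57 ± 0.24, adjusted p = 0.00275). Both were lower in each PANC1OR library than in any PANC1 library. ICAM1, a leukocyte adhesion molecule, was at 16.7 ± 2.27 and 61.3 ± 14.6 CPM (1.88 ± 0.24, adjusted p = 0.00124). CEBPB, a transcription factor of inflammatory genes, was at 7.60, 14.2 and 9.85 CPM and at 45.4, 41.8 and 114.5 CPM (2.68 ± 0.45, adjusted p = 0.00477), and at 2.06 without PANC1OR replicate 3. TNF had 6 reads in PANC1 and 4 in PANC1OR, IL6 had 0 and 2, and CSF2 had 0.

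Of the ligands and receptors that carry other names, 10 of 12 listed symbols were in the table and PITPNM3, a proposed receptor of CCL18, was the single tested gene, at 1.42 ± 0.205 and 1.87 ± 0.560 CPM (adjusted p = 0.522). MIF, a cytokine that binds CXCR2 and CXCR4, had 30 reads in PANC1 and 24 in PANC1OR, and CD74, its receptor, had 12 and 34. How reads with several alignments were counted is not named, so the MIF count may not reflect its level. CCRL2, CMKLR1 and CCL4L2 had 0 reads.

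**Figure D5:**
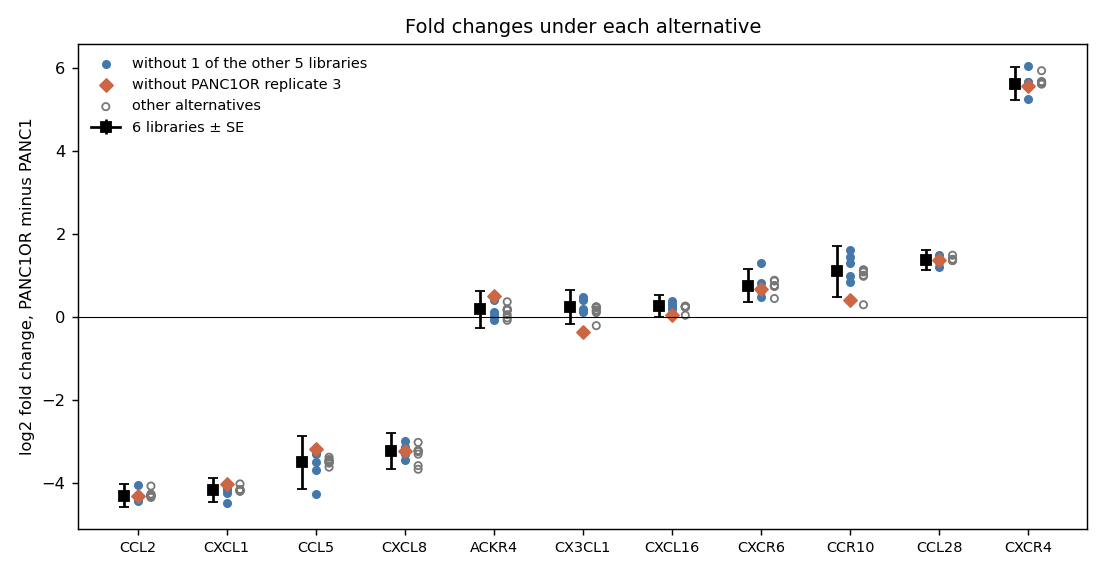
Log2 fold change (PANC1OR minus PANC1) of the 11 tested chemokine and receptor genes with 6 libraries (black square, ± SE), without 1 library (blue; orange diamond for PANC1OR replicate 3) and under the other alternatives (open circles). The 6 called genes stay on their side of 0 in all 14 alternatives, whereas ACKR4 and CX3CL1 cross it.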

How the data were processed

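One library was sequenced from each of 6 cultures. The authors deposited raw read counts, 1 row per gene, with no scaling. The submitters' processing notes list FastQC 0.11.5, cutadapt (in Trim Galore 0.4.2), STAR 2.5, GRCh38, and featureCounts from Subread 1.6.2; the series text adds their order: quality check, trimming, alignment, counting. Neither source names an annotation release, a strand option or a rule for multi-mapped reads. Of the table's columns, 5 hold no values.

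Genes were kept with filterByExpr, scaled with TMM and tested with edgeR 4.0.16 (quasi-likelihood F test, R 4.3.3) on 6 libraries without covariates, with Benjamini-Hochberg adjustment over 18751 genes. Standard errors derive from the F statistic. The procedure was tested on simulated data that had the same spread for all genes and no GC deviation between libraries. Positions, exon lengths and GC came from GENCODE release 44 (GRCh38), matched by identifier, and promoters from RefSeq (GRCh38.p14), matched by symbol. Alternatives were DESeq2 1.42.0 (size factors, Wald test), the likelihood ratio test, no filter, a replicate block, GC offsets (lowess on GC per library) and left-out libraries. Named were all members past the filter, members with at least 10 reads, and up to 6 called genes of each list with a mean of at least 1 CPM. The members and lists were chosen with earlier results of these data known. Replicate numbers were not treated as pairs in the main fit. The values of some genes are not reported here.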

Additional observations from a re-analysis of the deposited data

How the results depend on the processing

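The 6 chemokine and receptor calls, 2 higher and 4 lower, were kept in each of the 14 alternatives, including each fit without 1 library (2 to 2 higher, 4 to 4 lower). Under the submitters' stricter rule 1 was higher, and over all genes 699 were higher and 473 lower, where the adjusted p alone gave 1939 and 1406. Without 1 library, 1103 to 4340 genes were higher and 718 to 4323 lower, and 3 to 9 and 5 to 18 of the pathway genes, where 6 libraries gave 4 and 7; the highest counts were those without PANC1OR replicate 3. With PANC1 replicate 2 and PANC1OR replicate 3 both left out, 5664 were higher and 5758 lower, 13 and 25 of them pathway genes. GC offsets gave 3474 and 3317, with 9 and 15 pathway genes. The cause was not tested.

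With the replicate block 1402 genes were higher and 922 lower, and with the replicate block and GC offsets together 2869 and 2627, with 7 and 13 pathway genes. The deviations of same-numbered libraries correlated at 0.52, -0.49 and -0.25 over genes, and PANC1 replicates 2 and 3 correlated best with another number, so the pairing was not used. PANC1 replicate 2 and PANC1OR replicate 3 deviated in the same direction by GC, so these correlations cannot show whether cultures were handled in numbered pairs. ACKR4 changed sign at -0.019 with GC offsets, -0.076 with the replicate block and GC offsets, and within -0.065 to 0.51 without 1 library, at -0.0072 and -0.065 without PANC1OR replicate 1 or 2. CX3CL1 changed sign at -0.36 without PANC1OR replicate 3 (range -0.36 to 0.50) and -0.21 with both libraries left out. Neither gene was called in any alternative. Members under the filter rest on 35 or fewer reads, so at this depth their differences have only counting intervals and the test without a filter.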
